A study of Mus musculus with 6 samples.

Results

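The Hox genes are homeobox transcription factor genes that lie in 4 clusters, Hoxa to Hoxd. The genes described here were a given list of 38 members, 10 in Hoxa, 10 in Hoxb, 9 in Hoxc and 9 in Hoxd, found by symbol among the 27998 rows of the gene table and chosen by name, not by level. Their levels were read in 6 droplet single-cell RNA libraries of mouse dorsolateral and flank skin, each made from a pool of 3 to 4 embryos, so single embryos cannot be told apart. At each of embryonic days 13.5 (E13.5) and 14.5 (E14.5) there were 2 control libraries, labelled WT, and 1 loss-of-function (LOF) library. All were of the CD1 background. The LOF genotype was PDGFRalphaCreER(Lo);beta-catfl/fl;mTmG: a tamoxifen-inducible Cre driven by Pdgfra, a gene of mesenchymal cells, floxed beta-catenin alleles, and a tdTomato reporter that switches to eGFP after recombination. The labels give a single tamoxifen dose at E11.5 for this genotype, with 2 amounts (30 and 15 µg per g body weight), and repeat that text for the control samples.

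Hox genes give cells their position along the head-to-tail axis and along the limb. Within a cluster the genes are numbered from 1 to 13, genes of the same number in different clusters are paralogues, and low numbers are generally expressed farther forward, high numbers farther back or toward the tip of the limb. Dermal fibroblasts are known to keep a Hox pattern that reflects the part of the body they come from.

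In the GENCODE vM21 annotation (GRCm38) the Hoxa members span chr6:52162417-52260880, Hoxb chr11:96194316-96368256, Hoxc chr15:102921103-103036852 and Hoxd chr2:74668310-74765142. The annotated bodies of 11 of the 38 overlap another member on the same strand. Hoxc5 overlaps Hoxc6, Hoxc8, Hoxc9 and Hoxc10, Hoxa3 overlaps Hoxa4, Hoxa5 and Hoxa6, and Hoxd3 overlaps Hoxd4, so how UMIs were divided among these genes is uncertain. RefSeq (GRCm38.p6) gave a promoter for 22 of the 38. Those of 4 members with contrasting patterns are shown, 250 bases upstream of the RefSeq start and 5′ to 3′ on the gene's strand: Hoxa5 (high in keratinocytes), Hoxb8 (high in Schwann cells, keratinocytes and endothelial cells), Hoxd10 (highest in endothelial cells) and Hoxd13 (counted in Tbx5-positive fibroblasts). Capitals mark matches on either strand to the CCAAT box (CCAAT) and the TATA box (TATAAA).
Hoxa5, chr6:52204588-52204837, minus strand: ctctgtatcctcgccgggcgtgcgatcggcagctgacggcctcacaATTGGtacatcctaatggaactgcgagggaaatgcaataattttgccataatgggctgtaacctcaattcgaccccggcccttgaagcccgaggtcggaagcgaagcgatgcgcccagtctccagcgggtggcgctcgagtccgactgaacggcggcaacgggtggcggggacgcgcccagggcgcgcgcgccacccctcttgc
Hoxb8, chr11:96281655-96281904, plus strand: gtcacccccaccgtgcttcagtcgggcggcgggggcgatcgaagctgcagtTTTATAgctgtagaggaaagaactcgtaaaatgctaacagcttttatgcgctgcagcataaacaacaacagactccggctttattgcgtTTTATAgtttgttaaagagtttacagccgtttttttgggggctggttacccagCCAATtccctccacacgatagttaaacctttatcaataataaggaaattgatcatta
Hoxd10, chr2:74691641-74691890, plus strand: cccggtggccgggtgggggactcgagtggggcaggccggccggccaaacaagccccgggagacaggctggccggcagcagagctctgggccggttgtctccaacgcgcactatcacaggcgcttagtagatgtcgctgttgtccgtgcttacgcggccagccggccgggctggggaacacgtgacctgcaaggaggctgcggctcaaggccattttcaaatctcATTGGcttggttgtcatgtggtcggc
Hoxd13, chr2:74667975-74668224, plus strand: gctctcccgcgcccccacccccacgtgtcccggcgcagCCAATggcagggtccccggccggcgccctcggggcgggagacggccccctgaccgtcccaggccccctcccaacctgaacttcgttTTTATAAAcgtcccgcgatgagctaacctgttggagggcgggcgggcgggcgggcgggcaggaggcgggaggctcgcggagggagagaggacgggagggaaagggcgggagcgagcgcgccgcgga

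Each of these 4 windows held a CCAAT match, as did 33.8% of the 32817 promoter windows of the same length. TATAAA stood in the Hoxb8 and Hoxd13 windows and in 12.4% of all; in Hoxd13 the 2 matches lie on opposite strands and overlap. Neither the Pbx-Hox motif TGATTNAT (2.83% of all windows) nor the Meis motif TGACAG (15.9%) was found on either strand of the 4. The windows held between 12 (Hoxb8) and 31 (Hoxd13) CG dinucleotides, against a median of 6 over all windows.

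Across the libraries, 5850 to 8922 cells were kept, with a median of 8192 to 11323 UMIs (unique molecules counted) per cell. Cells were assigned by summed marker UMIs to 6 classes: 21868 fibroblasts, 7510 keratinocytes, 2390 muscle cells, 763 Schwann cells, 318 endothelial cells and 1253 macrophages. Levels are given as CPM (counts-per-million: UMIs of a gene over all UMIs of the class in a library), counted at the 3′ end and not scaled to gene length, so an order of genes is an order of tags. Pecam1 was at 279 to 651 CPM in endothelial cells and at most 10.7 in any other class, and Sox10 at 215 to 389 in Schwann cells and at most 10.9 elsewhere. Col1a1, a collagen gene that defined the fibroblasts (1495 to 4894), also reached 799 in Schwann cells. At least 5 UMIs of chondrocyte or pericyte markers or 3 of tendon markers were found in 1.99% to 9.11% of fibroblasts, and no member passed the stage or genotype test without them either. Pairs of libraries shared 45 to 103 cell barcodes, at most 1.46% of the smaller library. Ctnnb1, the targeted gene, was at 194, 177, 183 and 175 CPM in control fibroblasts and at 248 and 198 in those labelled LOF; tags at the 3′ end need not lie in the deleted part, so this does not check the label. The reporter rows went against the control labels. eGFP was at 119.6 and 91.1 CPM in fibroblasts of the second control library of each stage, against 2.92 and 5.13 in the first and 349 and 323 in LOF. tdTomato was found in 97.8%, 94.1%, 22.0% and 59.1% of keratinocytes of the control libraries (E13.5 replicates 1 and 2, then E14.5). It was found in 3.73%, 3.47%, 19.6% and 1.88% of fibroblasts of the same libraries. In E14.5 control replicate 1 it was also in 26.8% of Schwann cells, so there it was not particular to keratinocytes. Stage differences are therefore given within each replicate number too, and genotype differences also from a fit with an inferred batch that no label gives, which sets LOF against replicate 1 of each stage.

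Where a gene is given with 6 values, they follow the order E13.5 control replicates 1 and 2, E14.5 control replicates 1 and 2, E13.5 LOF, E14.5 LOF. Of the 38 members, 25 reached a mean of 5 in at least 1 class: 9 were highest in keratinocytes, 5 in fibroblasts, 5 in endothelial cells, 4 in Schwann cells and 2 in muscle. The other 13 stayed below 5 in every class. Hoxc12 had no UMI in any of the 6 classes.

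**Figure D1:**
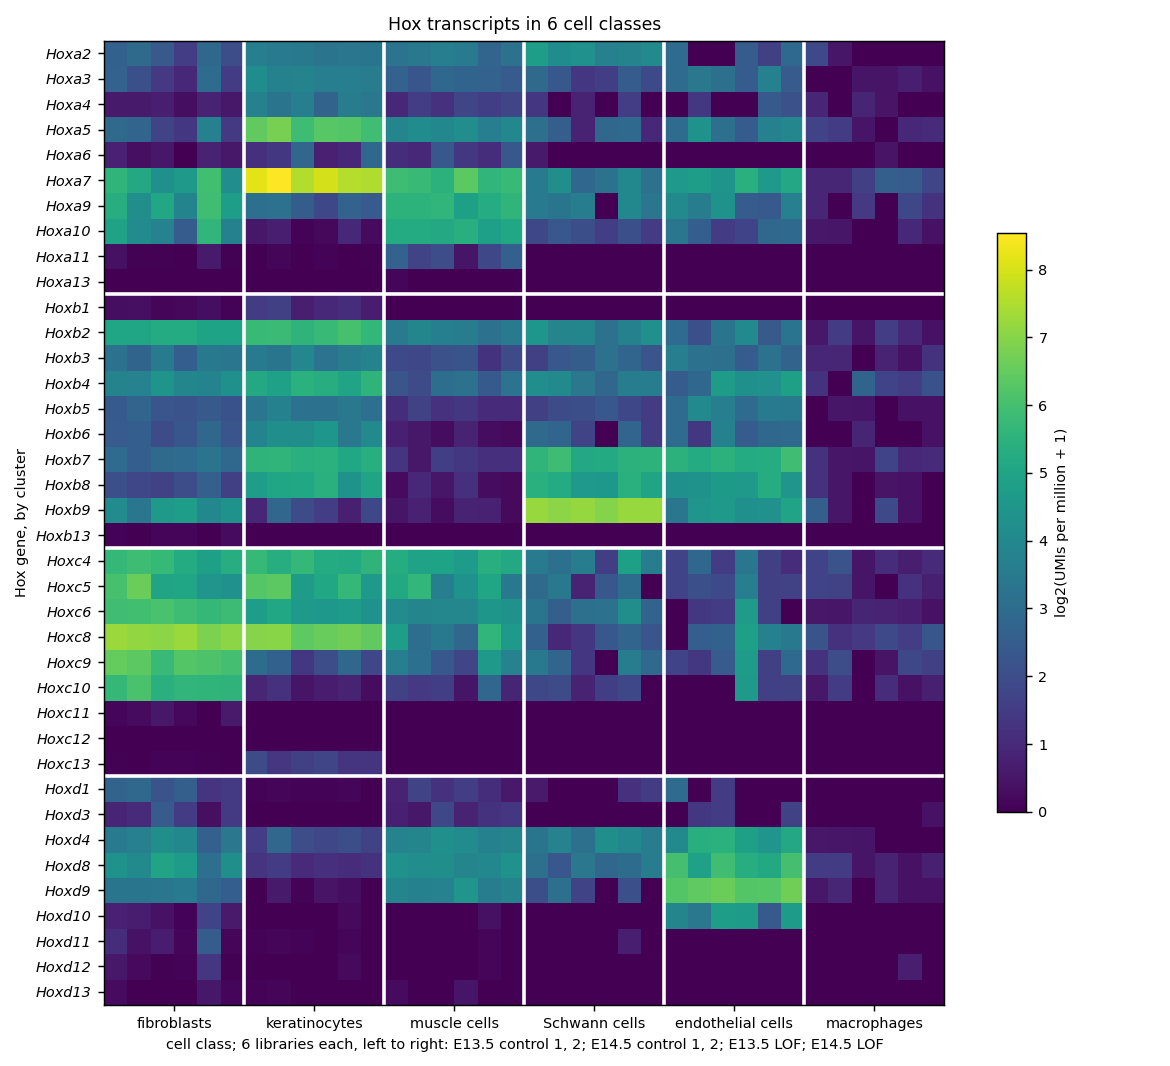
Level of each of the 38 Hox genes (rows, by cluster) in 6 cell classes (blocks of 6 libraries), as log2(CPM + 1). Hoxc8 is the brightest row in fibroblasts, Hoxa7 in keratinocytes, Hoxb9 in Schwann cells and Hoxd9 in endothelial cells, and macrophages are dark throughout.

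Fibroblasts carried mainly Hoxc transcripts. The 9 Hoxc members summed to 406 ± 67.7 CPM (SD, n = 6), against 99.5 ± 55.3 for Hoxa, 93.2 ± 10.1 for Hoxb and 46.9 ± 13.2 for Hoxd. Hoxc8, a gene of the thoracic region, was the highest single gene, at 153, 139.9, 131, 152, 113 and 132. Hoxc9 followed at 90.3, 82.7, 54.6, 75.9, 70.6 and 62.8. Every Hoxc9 value lay below every Hoxc8 value. Hoxc10, a gene of the lumbar region and hindlimb, was at 50.2, 66.9, 41.3, 48.1, 46.7 and 46.1. Hoxc6, another thoracic gene, was at 59.3, 60.3, 66.7, 57.9, 50.1 and 57.0, and the Hoxc6 and Hoxc10 ranges overlapped. A mean of at least 20 was reached by 10 members: Hoxa7, Hoxa9, Hoxa10, Hoxb2 and the 6 Hoxc members numbered 4 to 10. Hoxb2, a gene of the hindbrain and neck, varied little, at 32.0, 31.6, 37.4, 37.0, 30.2 and 29.9. By number, paralogues 1 to 4 summed to 103 to 152, paralogues 5 to 8 to 260.3 to 371, paralogues 9 and 10 to 172 to 248 and paralogues 11 to 13 to 0.432 to 7.26.

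Keratinocytes, the cells of the epidermis, carried Hoxa transcripts above all. Hoxa summed to 364 ± 93.6 CPM (SD, n = 6), Hoxb to 204 ± 12.4, Hoxc to 227 ± 51.3 and Hoxd to 4.90 ± 1.98. Hoxa7, a thoracic gene, was the highest, at 289, 369, 185, 253, 192 and 180.1, and no fibroblast library exceeded 60.2. Hoxa5, a gene of the neck and upper thorax, was at 86.9, 108, 58.4, 79.5, 75.6 and 59.9 in keratinocytes and at most 12.04 in fibroblasts. Neither gene overlapped between the classes in any of the 6 libraries.

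In edgeR's quasi-likelihood test, with library as a term, 24 of 27 members tested differed between keratinocytes and fibroblasts, 13 higher and 11 lower. Of all genes tested 72.8% passed, 35.6% higher and 37.1% lower, so the classes differed broadly and the count is read against that share. The 13 higher were all numbered 2 to 8 and lay in Hoxa and Hoxb. On the log2 scale Hoxa4 was higher by 4.31 ± 0.29 (SE), Hoxa5 by 4.20 ± 0.28 (edgeR adjusted p = 1.03e-13), Hoxb8 by 3.49 ± 0.21, Hoxa7 by 3.04 ± 0.21 and Hoxb7 by 2.75 ± 0.13. The 11 lower held every tested member numbered 9 or 10 and every tested Hoxd member. Hoxc10 differed by -6.15 ± 0.34 (edgeR adjusted p = 5.32e-16), Hoxd1 by -5.67 ± 0.50, Hoxa10 by -5.52 ± 0.37 and Hoxd9 by -5.38 ± 0.35. Hoxa4 averaged 9.82 CPM in keratinocytes and at most 1.84 in any other class. Hoxd1 averaged 3.97 in fibroblasts and at most 1.44 in any other class. These 2 genes passed the filter on low counts mainly through the class in which they were high, so their calls are not independent of it. Paralogues 9 and 10 summed to 8.64 to 22.2 in keratinocytes. Hoxc4, Hoxc5 and Hoxc8 did not pass the test, with log2 differences of 0.12 ± 0.17, 0.31 ± 0.16 and -0.31 ± 0.23. Hoxc13, a gene known from hair and nail, was at 1.44 to 2.84 in keratinocytes and at most 0.0593 in fibroblasts; its counts were too low to enter this test.

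**Figure D2:**
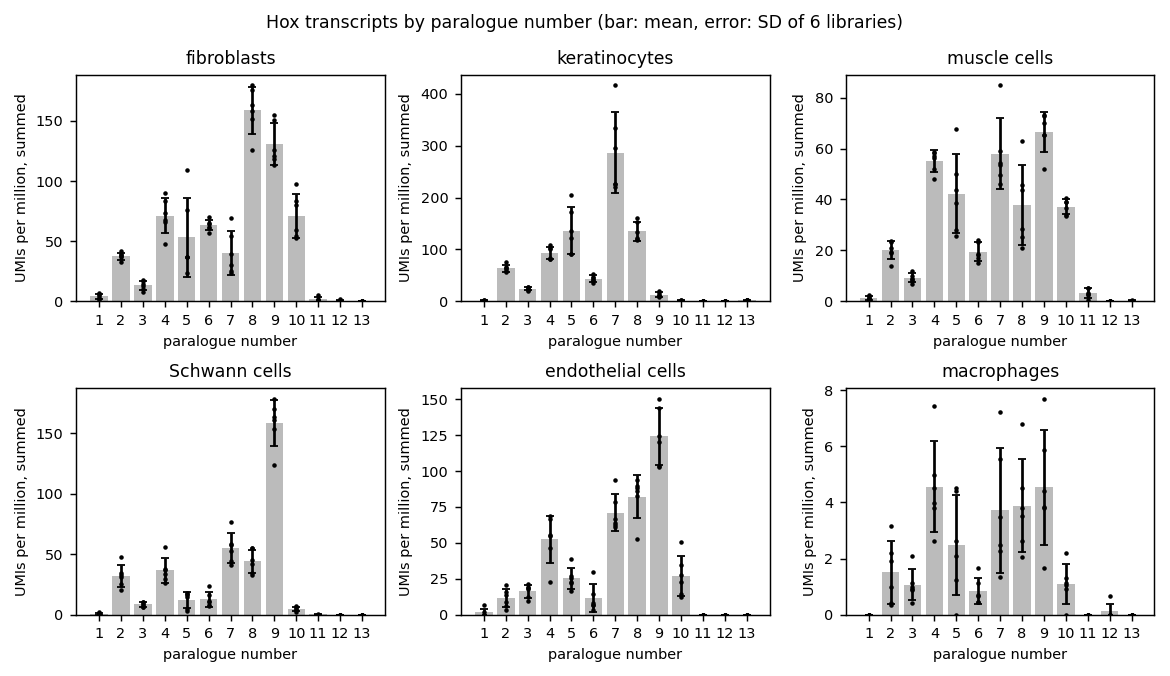
Hox transcripts summed by paralogue number in each class, in CPM (vertical axes differ); bars are means and error bars SDs of 6 libraries, points are libraries. The highest bar is number 8 in fibroblasts, 7 in keratinocytes and 9 in muscle, Schwann and endothelial cells.

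Schwann cells, the glia of peripheral nerves, were set apart by Hoxb9, a thoracic gene. It was at 146, 131, 146, 123, 149 and 147 CPM, with no overlap with fibroblasts (9.28 to 26.2). Hoxb members summed to 255 ± 28.0 (SD, n = 6), against 23.4 ± 2.92 for Hoxd. Of 27 members, 19 differed from fibroblasts (all genes tested: 48.7%, with 21.6% higher and 27.1% lower), 4 higher and 15 lower. The 4 higher were Hoxb8 (3.41 ± 0.24), Hoxb9 (2.91 ± 0.30, edgeR adjusted p = 2.7e-09), Hoxb7 (2.63 ± 0.16) and Hoxa2 (1.85 ± 0.30). Among the 15 lower, Hoxc8 differed by -5.34 ± 0.45 (edgeR adjusted p = 8.54e-11) and Hoxc10 by -4.83 ± 0.47. The median over the 27 was -1.34, beside -0.058 over all genes.

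Endothelial cells, which line the vessels, carried Hoxd above all, and Hoxb as well, with means of 43.0 CPM for Hoxb7 and 23.8 for Hoxb8. Hoxd9, a gene of the lower trunk and limb, was at 75.7, 86.5, 97.2, 75.8, 77.4 and 101, above every fibroblast value (at most 10.2). Hoxd10 was at 13.8, 9.61, 25.6, 25.3, 4.19 and 25.4, against at most 2.25 in fibroblasts. In the test 18 of 27 members differed (all genes tested: 50.1%, with 22.6% higher and 27.5% lower), 9 in each direction. Hoxd10 was higher by 4.99 ± 0.57, Hoxd9 by 3.51 ± 0.24 (edgeR adjusted p = 2.76e-14), Hoxb8 by 3.04 ± 0.30 and Hoxb7 by 2.74 ± 0.18. Hoxd10 averaged 17.3 CPM in endothelial cells, 0.743 in fibroblasts and at most 0.0526 in the other classes. It thus passed the filter on low counts through the endothelial sums, and its call is not independent of that filter. The 6 Hoxc members numbered 4 to 10 were all lower, with log2 differences of -3.39 to -3.89. These values rest on 34 to 79 cells per library. In the E14.5 control replicate 2 library, with 35 cells, Hoxc summed to 122 CPM, against 6.88 to 23.0 in the others.

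Muscle cells carried Hoxa above all, and Hoxc as well, with means of 32.7 CPM for Hoxc4 and 26.0 for Hoxc5. Hoxa7 was at 57.7, 53.7, 44.1, 83.2, 48.2 and 52.4, Hoxa9 at 27.9 to 48.5 and Hoxa10 at 27.1 to 40.0. Of 27 members 25 differed from fibroblasts (all genes tested: 67.3%, with 31.2% higher and 36.1% lower), 10 higher and 15 lower. The 8 tested Hoxa members were all higher, from 0.70 ± 0.20 for Hoxa9 to 2.11 ± 0.46 for Hoxa6, as were Hoxd4 (0.60 ± 0.19) and Hoxd9 (1.01 ± 0.22). The 8 tested Hoxb members were all lower, from -1.28 ± 0.20 for Hoxb4 to -4.91 ± 0.52 for Hoxb9.

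Macrophages reach the skin from the blood and yolk sac, and their Hox level is given as a reference; RNA in droplets without a cell was not measured here. Their Hox sum was lower than in any other class, 17.4 to 31.7 CPM, and no cluster exceeded 12.4 in any library. With doublets kept, their mean Hox sum was 47.1 CPM. Of 27 members 25 were lower than in fibroblasts (all genes tested: 74.1%, with 37.3% higher and 36.9% lower) and none higher. The median over the 27 was -4.09 on the log2 scale, beside -0.0059 over all genes. After each cell was thinned to 3000 UMIs, 4.41% to 10.2% of macrophages had a UMI of any member, against 75.7% to 82.7% of fibroblasts and 83.0% to 92.5% of keratinocytes. Hoxc8 was found in 24.0% to 33.4% of thinned fibroblasts, 21.9% to 30.6% of keratinocytes and 0% to 2.92% of macrophages. Hoxa7 was found in 5.11% to 12.4%, 36.9% to 56.3% and 0% to 1.60% of the same classes. The mean number of members per thinned cell was 1.42 to 1.81 in fibroblasts, 1.73 to 2.33 in keratinocytes and 0.0490 to 0.109 in macrophages.

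Genes that work with or beside the clusters were counted from fixed lists in the comparison of keratinocytes with fibroblasts, in which 72.8% of all genes passed. Of 7 other transcripts of the Hox clusters, 5 were tested, 4 were higher and 1 lower. Hotairm1, a noncoding RNA at the front end of Hoxa, was higher by 4.65 ± 0.14, Hoxaas3 by 3.19 ± 0.26 and Hoxb3os by 3.19 ± 0.17, while Hoxd3os1 differed by -1.88 ± 0.23. Among 9 cofactors, the Pbx, Meis and Pknox proteins that bind DNA beside Hox proteins, 3 were higher and 4 lower, with Meis1 at -2.25 ± 0.13 and Pbx3 at 0.81 ± 0.16. Of 15 regulators of Hox transcription, 12 were tested, 7 were higher and 2 lower. Gdf11, a signal that sets trunk and tail Hox domains, differed by -3.22 ± 0.26, and its receptor gene Acvr2b by 1.52 ± 0.15. Of 9 cluster neighbours tested 4 were higher and 2 lower, with Skap2, beside Hoxa, at 4.16 ± 0.17. Of 16 limb and body region genes, the 11 tested were all lower in keratinocytes; Shox2 differed by -6.45 ± 0.33 and Tbx18 by -6.34 ± 0.34.

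Fibroblasts differed among themselves. A Hoxc10 UMI was found in 22.8%, 22.8%, 19.7%, 19.5%, 21.3% and 19.0% of them. Hoxa10, the Hoxc10 paralogue in Hoxa, was at 77.2 and 14.2 CPM in positive and negative cells of E13.5 control replicate 1 and at 49.5 and 5.39 in replicate 2. It was at 43.8 and 3.70 and at 16.6 and 1.34 in the E14.5 controls. In the LOF libraries it was at 115 and 30.1 (E13.5) and at 42.1 and 4.83 (E14.5). Positive cells were higher in all 6 libraries. Hoxc5 went the other way, at 8.42 to 23.7 in positive and 20.9 to 121 in negative cells, lower in positive cells of all 6; its annotated body overlaps that of Hoxc10.

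Leaving out Hoxc10 itself, 16 of 29 members passed edgeR's test between Hoxc10-positive and Hoxc10-negative fibroblasts, with library as a term, against 11.3% of all genes (5.72% higher and 5.53% lower). The 5 higher members were numbered 9 to 11. They were Hoxa10 (2.65 ± 0.27, edgeR adjusted p = 0.0039), Hoxb9 (1.495 ± 0.11), Hoxa9 (1.49 ± 0.30), Hoxc9 (0.95 ± 0.094) and Hoxc11. Hoxc11 had 4, 5, 16, 2, 1 and 14 UMIs in positive cells of the 6 libraries and 0, 0, 0, 1, 0 and 4 in negative cells, too few in single libraries for a fold to be given. It passed the filter on low counts through the positive cells, so its call is not independent of that filter. Of the 11 lower, 10 were numbered 1 to 8, among them Hoxc5 (-1.82 ± 0.18), Hoxc4 (-1.60 ± 0.14), Hoxa7 (-1.29 ± 0.23) and Hoxc8 (-0.79 ± 0.066). The other was Hoxd11 (-1.08 ± 0.33). Hoxd11 averaged only 1.15 CPM over fibroblasts of the 6 libraries and was highest in E13.5 LOF, at 4.64. Positive cells had more UMIs in median than negative cells in each library, from 10021 against 10019.5 in E13.5 LOF to 11644 against 9879 in E14.5 control replicate 1. With cells thinned to 3000 UMIs, 10 of 25 members passed, 5 in each direction, beside 3.74% of all genes. Of 13 limb and body region genes tested, 4 were higher and 1 lower: Lhx9, a limb bud factor, at 2.76 ± 0.29, Pitx1 at 0.94 ± 0.18, Alx4 at 0.57 ± 0.17, Emx2 at 0.52 ± 0.057 and Meox1, a somite factor, at -0.87 ± 0.16.

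**Figure D3:**
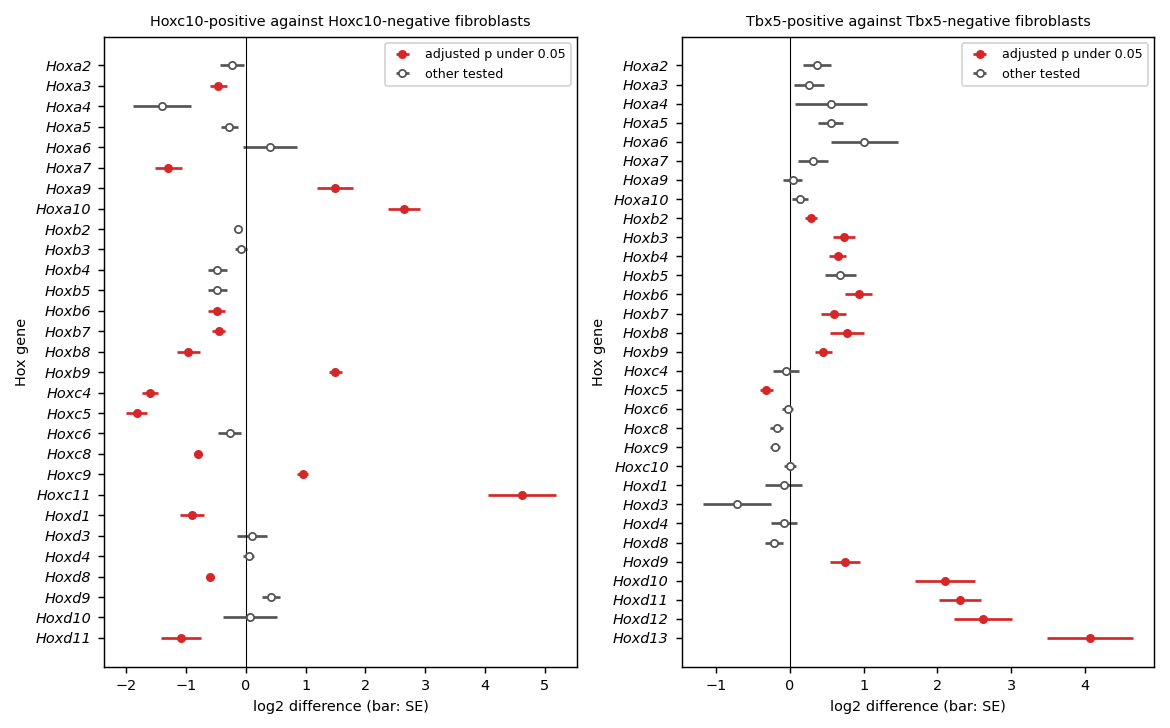
Log2 difference (point) and SE (bar) of each tested Hox gene between fibroblasts with and without a UMI of Hoxc10 (left) or Tbx5 (right), 6 libraries; filled red points passed edgeR's test. Of the red points, Hoxa9, Hoxa10, Hoxb9, Hoxc9 and Hoxc11 lie to the right of 0 on the left, and Hoxd9 to Hoxd13 and 7 Hoxb genes on the right. Counting all points, 10 of 29 on the left and 22 of 31 on the right lie to the right of 0.

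Tbx5, a forelimb factor, was found in 10.3%, 6.63%, 3.67%, 1.96%, 15.6% and 2.98% of fibroblasts. Hoxd11, a gene of the distal limb, had 16, 4, 4, 0, 102 and 2 UMIs in the Tbx5-positive cells of the 6 libraries. As levels, this was 3.37 and 0.880 CPM in positive and negative cells of E13.5 control replicate 1 and 13.8 and 2.89 in E13.5 LOF. Most of the Hoxd11 UMIs in positive cells were thus from E13.5 LOF. Of 31 members 13 passed edgeR's test, against 4.34% of all genes (1.58% higher and 2.76% lower); 12 were higher and 1 lower. The 12 were Hoxd9 to Hoxd13 and Hoxb2, Hoxb3, Hoxb4, Hoxb6, Hoxb7, Hoxb8 and Hoxb9. Hoxd12 and Hoxd13 averaged only 0.378 and 0.125 CPM over all fibroblasts. They passed the filter on low counts through the positive cells, so their calls are not independent of that filter. Hoxd11 was higher by 2.31 ± 0.29 (edgeR adjusted p = 8.4e-08), Hoxd9 by 0.75 ± 0.20, Hoxb6 by 0.94 ± 0.18 and Hoxb3 by 0.73 ± 0.15. Hoxc5 differed by -0.32 ± 0.087. In the 4 control libraries alone 11 of 27 members passed (4.82% of all genes) and with DESeq2 6 of 31 (2.01%). With cells thinned to 3000 UMIs 1 of 26 passed (0.989%), and Hoxb8 and Hoxb9 then turned to -0.51 and -0.44.

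Pitx1, a hindlimb factor, was found in 16.5%, 4.59%, 1.33%, 0.652%, 30.5% and 2.69% of fibroblasts. With 18 positive cells in E14.5 control replicate 2, this division was not tested. Hoxa10 was at 87.0 and 17.7 CPM in Pitx1-positive and negative cells of E13.5 control replicate 1, and at 114 and 21.9 in E13.5 LOF. Hoxc5 was at 25.1 and 72.5, and at 8.93 and 25.4, in the same libraries. Hoxa10 was higher and Hoxc5 lower in Pitx1-positive cells of all 6 libraries. Hoxc10 was found in 26.2% to 54.2% of Pitx1-positive fibroblasts and 17.8% to 21.3% of the others, the positive share being higher in each library. The share of fibroblasts with a UMI of Pitx1, Tbx4 or Tbx5 was 24.8%, 11.1%, 5.0%, 2.61%, 42.4% and 5.63%, uneven over the groups compared next. In sums over a class, fewer cells of a kind and less RNA per cell cannot be told apart.

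Between E13.5 and E14.5 control fibroblasts, Hoxa5 was at 6.67 and 5.92, then 2.37 and 1.63. Hoxc5 was at 64.8 and 97.2, then 30.5 and 31.5. Hoxa10 was at 29.0 and 16.2, then 12.6 and 4.61. For these 3 genes both E14.5 libraries lay below both E13.5 libraries. Hoxb9 was at 16.5 and 9.28, then 23.7 and 26.2, with both E14.5 libraries above. Of 26 members with a mean of at least 1, 11 were lower in both E14.5 libraries than in both E13.5 libraries, beside 30.4% of all genes, and 7 were higher, beside 20.6%.

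None of 29 members tested passed edgeR's test for stage in fibroblasts (0.0% of 14282 genes did); 8 had an unadjusted p under 0.05, beside 17.3% of all genes. DESeq2 called 3 of 29, beside 5.97% of all genes: Hoxa3, Hoxa5 and Hoxc5, all lower at E14.5. In the fit with 3 inferred batches, where stage rests on the replicate 2 libraries, 3 of 33 passed in edgeR, beside 12.9% of all genes. The log2 differences in the edgeR fit were -1.69 ± 0.43 for Hoxa3 (adjusted p = 0.154), -1.63 ± 0.31 for Hoxa5, -1.39 ± 0.49 for Hoxa10, -1.36 ± 0.30 for Hoxc5, 1.73 ± 0.49 for Hoxd3 and 1.0 ± 0.34 for Hoxb9. Between the replicate 1 libraries the levels of Hoxa5 differed by -1.49 and between the replicate 2 libraries by -1.86 on the log2 scale. Hoxc5 differed by -1.09 and -1.62 in the same way, and Hoxb9 by 0.52 and 1.498. With the replicate number as a term in edgeR, 4 members were among the 893 genes that passed. The number of genes tested in that fit is not given here, so this count does not set the Hox genes apart. No label says that the numbers pair the libraries. With 1 library left out, the members called were 1 of 30 (2.53% of all genes) without E13.5 control replicate 1 and 0 of 31 (2.08% of all genes) without its replicate 2. They were 1 of 30 (3.56% of all genes) without E14.5 control replicate 1 and 5 of 31 (23.6% of all genes) without its replicate 2. Without fibroblasts holding a UMI of Pitx1, Tbx4 or Tbx5, none passed, Hoxa10 differed by -0.91 ± 0.44 and Hoxc5 by -1.46 ± 0.28.

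In keratinocytes Hoxc5 was at 76.8 and 83.1 at E13.5 and at 25.0 and 33.9 at E14.5 in the controls, a log2 difference of -1.37 ± 0.28 (edgeR adjusted p = 0.118). Hoxa7 was at 289 and 369, then 185 and 253. Neither gene overlapped between the stages. Of 24 members with a mean of at least 1, 13 were lower in both E14.5 libraries, beside 30.8% of all genes, and 2 higher, beside 17.7%. None of 25 members passed edgeR's test (0.233% of all genes did, 0.153% higher and 0.0803% lower). Of the members 4 had an unadjusted p under 0.05, beside 1618 of all 12449 genes (13%), and DESeq2 called 1, Hoxc5, beside 3.46%. With the replicate number as a term in edgeR, 3 members were among the 1298 genes that passed, a count again given without the number tested. Without E14.5 control replicate 2, 4 of 25 members were called, beside 17.7% of all genes.

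**Figure D4:**
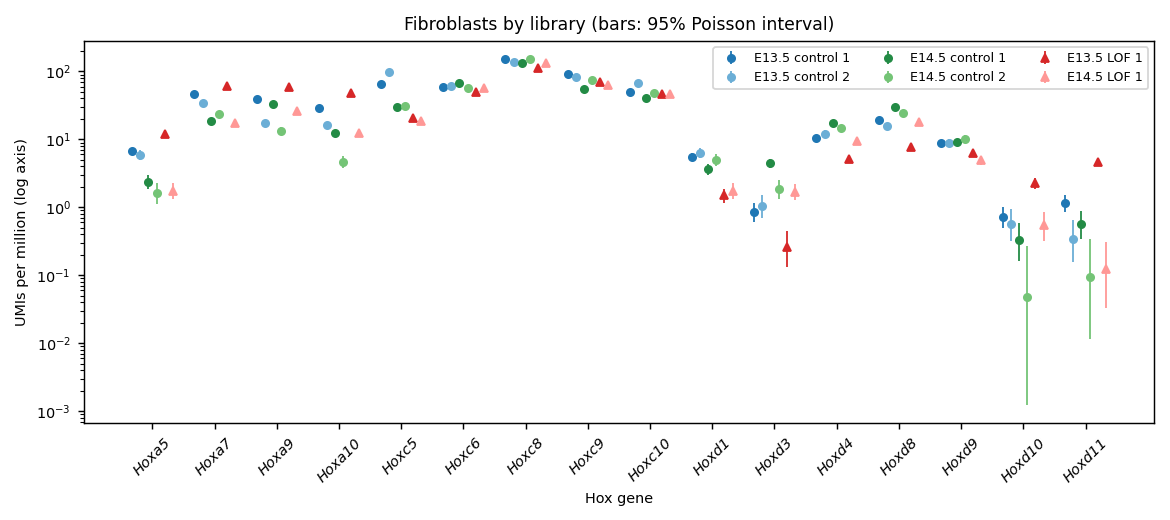
Level of 16 Hox genes in fibroblasts of each library, in CPM on a log axis; circles are control and triangles LOF libraries, and bars are 95% Poisson intervals, which cover counting error only. Hoxd1, Hoxd3, Hoxd4 and Hoxd8 of E13.5 LOF lie below both E13.5 controls, and Hoxa10 and Hoxd11 of that library above them.

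Between genotypes, several front Hoxd genes and Hoxc5 stood lower in LOF fibroblasts at both stages. Hoxd1 was at 5.59, 6.34, 3.65 and 5.04 in the controls and at 1.49 (E13.5) and 1.74 (E14.5) in LOF. Hoxd4, a gene of the neck region, was at 10.4, 12.1, 17.7 and 14.6 in the controls and at 5.07 and 9.44 in LOF. Hoxd8 was at 19.4, 15.5, 30.3 and 24.7 in the controls and at 7.63 and 17.8 in LOF. In each stage the LOF library lay below both controls for these 3 genes. Hoxc5 was at 20.7 and 18.7 in LOF, also below both controls of each stage. This held at both stages for 9 of 26 members (Hoxb2, Hoxb5, Hoxc5, Hoxc6, Hoxd1, Hoxd3, Hoxd4, Hoxd8 and Hoxd9), beside 15.0% of all genes. Hoxa3 alone was above both controls at both stages, beside 20.2%. By stage, 13 members of E13.5 LOF lay below both controls (all genes: 31.8%) and 11 above (39.1%). In E14.5 LOF 13 lay below (28.8%) and 1 above (33.4%).

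With 1 LOF library per stage, none of 31 members passed edgeR's test with stage as a term (0.0135% of 14836 genes did); 9 had an unadjusted p under 0.05, beside 8.1% of all genes. DESeq2 called 4 of 30, beside 1.82% of all genes: Hoxc5, Hoxd1, Hoxd4 and Hoxd8, all lower. The log2 differences in the edgeR fit were -1.71 ± 0.32 for Hoxd1, -1.37 ± 0.36 for Hoxc5, -1.01 ± 0.20 for Hoxd4 (adjusted p = 0.326) and -0.95 ± 0.20 for Hoxd8. In the fit with 3 inferred batches, Hoxd4 passed at -0.95 ± 0.11 (edgeR adjusted p = 0.0286), as the only one of 33 members, beside 2.43% of all genes. Without fibroblasts holding a UMI of Pitx1, Tbx4 or Tbx5, Hoxd1 differed by -1.57 ± 0.28, Hoxd4 by -1.02 ± 0.20 and Hoxd8 by -0.90 ± 0.21, and none passed.

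E13.5 LOF fibroblasts stood above both E13.5 controls in Hoxa9 (58.8 against 39.1 and 17.6), Hoxa10 (48.2 against 29.0 and 16.2) and Hoxd11 (4.64 against 1.15 and 0.339). At E14.5 the LOF values lay between those of the 2 controls: Hoxa9 was at 26.1 against 33.1 and 13.5, and Hoxa10 at 12.5 against 12.6 and 4.61. In E13.5 LOF 2.35% of thinned fibroblasts had a member numbered 11 to 13 as their highest, against 0.224% to 0.557% in the other 5 libraries. That library also had the highest share of Pitx1-, Tbx4- or Tbx5-positive fibroblasts, 42.4%. Without those cells, a removal chosen after seeing the data, the Hoxa10 genotype difference was 0.37 ± 0.33 in place of 0.80 ± 0.39. Neither passed the test. Whether those cells account for the Hoxa10 level of E13.5 LOF was not tested.

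In LOF keratinocytes Hoxa7 was at 192 and 180.1 against 289, 369, 185 and 253 in the controls, below both controls of each stage. None of 25 members passed edgeR's test for genotype (0.0% of 12737 genes did); 1 had an unadjusted p under 0.05, beside 1.69% of all genes, and DESeq2 called none, beside 0.0236%. LOF lay below both controls at both stages for 9 of 24 members, beside 11.9% of all genes, and above for none, beside 10.2%. By stage, 17 members lay below both controls and 2 above at E13.5 (all genes: 30.9% and 33.1%), and 11 below and 3 above at E14.5 (32.0% and 27.8%).

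Within the LOF libraries, fibroblasts with eGFP only (1976 and 2453 cells at E13.5 and E14.5) were set beside those with tdTomato only (83 and 132 cells), with 95% Poisson intervals. Neither reporter had a UMI in 51.0% and 37.9% of LOF fibroblasts. tdTomato was at 3.23 and 4.84 CPM in these fibroblasts, 2.94 and 9.76 in macrophages and 989 and 62.5 in keratinocytes. A tdTomato UMI in a fibroblast therefore need not mark a cell without recombination. At E13.5 Hoxc8 was at 108 (104 to 113) in eGFP-only and 129.7 (108 to 154) in tdTomato-only cells. At E14.5 it was at 139 (134 to 144) and 123 (103 to 145). Hoxd4 was at 4.57 (3.72 to 5.57) and 8.17 (3.53 to 16.1) at E13.5 and at 9.25 (7.96 to 10.7) and 16.4 (9.88 to 25.6) at E14.5. All of these intervals overlapped within a stage, and Hoxd4 was lower in eGFP-only cells at both stages. The cells of both LOF libraries were then tested with library as a term, a test chosen after seeing the data, with 2 sums per library. None of 28 members passed in edgeR, beside 0.409% of 12950 genes (0.185% higher and 0.224% lower). DESeq2 called none either, beside 0.0232% of all genes. An unadjusted p under 0.05 in edgeR was found for 3 members, beside 5.99% of all genes. They were Hoxd4, with a log2 difference of -0.79 ± 0.37 (edgeR adjusted p = 0.771), Hoxb9 with -0.58 ± 0.25 and Hoxc10 with 0.46 ± 0.18.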

How the data were processed

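Cells were sorted live and run on a 10x 3′ kit (v2), per the labels' protocols; the submitters' processing notes name Cell Ranger, Seurat and the builds mm10 and GRCm38, with roles and versions not given in the sources used here. The deposited matrices hold counts: whole UMIs per gene and cell, not normalized by the authors. A cell was kept if it had 1000 or more UMIs, 500 or more genes and no more than 10% of its UMIs from mitochondria. Doublets were scored from simulated pairs (2000 genes, 30 components, 50 neighbours) and removed at 0.8% per 1000 cells, 4.68% to 7.14% of cells. Classes needed at least 15 UMIs of 3 collagen genes for fibroblasts, 10 of keratin and Epcam for keratinocytes, 10 for macrophages, 5 for Schwann and endothelial cells and 3 for muscle; cells passing several non-collagen gates were left out. UMIs were summed per library and class (at least 20 cells) and tested with edgeR 4.0.16 (TMM, quasi-likelihood, robust) in R 4.3.3, with Benjamini-Hochberg adjustment over all genes tested and a threshold of 0.05. DESeq2 1.42.0 was an alternative. Class and positive-against-negative contrasts were fitted with library as a term, stage over 4 control libraries, genotype over 6 libraries with stage as a term. Fibroblasts of the LOF libraries with eGFP only or tdTomato only were compared in the same way, leaving out both reporter genes. The scripts were tested on simulated data. No label says that replicates are separate pools, so p-values for stage and genotype measure the spread between these libraries, which may be technical. Where library was a term, p-values measure how far the differences varied from library to library, which may be technical too. The counts of same-stage controls were not copies of each other (chi-square per degree of freedom 61.6 and 137), which says nothing on how the pools were made. Genes named singly were members with a mean of at least 20 CPM in fibroblasts, members past the test and the 3 largest rises and falls of a comparison; other genes were counted by list with up to 4 examples. Members and lists were chosen with earlier results of these data known.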

Additional observations from a re-analysis of the deposited data

Results flagged for a closer look

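The difference between E14.5 and E13.5 controls was itself tested between keratinocytes and fibroblasts (edgeR, an interaction term). Of 31 members 4 passed, beside 1699 of 14454 genes. Members thus passed at about the same share as all genes, so this count does not set the Hox genes apart. On the log2 scale the stage difference in keratinocytes minus that in fibroblasts was 1.46 ± 0.26 for Hoxa3 (edgeR adjusted p = 0.00304), 0.81 ± 0.20 for Hoxb6 (edgeR adjusted p = 0.0215), -0.44 ± 0.11 for Hoxc8 (edgeR adjusted p = 0.0198) and -1.03 ± 0.21 for Hoxc9 (edgeR adjusted p = 0.00776). The genotype difference at E14.5 against that at E13.5 gave no call among 33 members in fibroblasts (edgeR; 1 at an unadjusted p under 0.05) and none among 26 in keratinocytes (0 unadjusted).

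eGFP stood at 119.6 CPM in fibroblasts of E13.5 control replicate 2 and at 91.1 in those of E14.5 control replicate 2, both labelled WT, against 2.92 and 5.13 in replicate 1.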

How the results depend on the processing

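For genotype in fibroblasts, where 2 genes and no Hox gene passed in the main edgeR fit, DESeq2 called 259 genes, 4 of them Hox genes, and a batch of 3 levels 375, 1 of them a Hox gene. That batch, which no label gives, joins replicate 1 of each stage with the LOF library of that stage and both replicates 2 with each other, so genotype rests on replicate 1 and stage on replicate 2. No filter on low counts gave 6 genes; gates per 10000 UMIs, higher gates, library totals without TMM, no doublet removal, and leaving out Pitx1, Tbx4 or Tbx5 cells (chosen after seeing the data) each gave 0. For genotype in keratinocytes DESeq2 called 3 genes and the batch 54. For stage in fibroblasts (0 genes) the Hox genes and all genes called were 3 and 853 with DESeq2, 3 and 1988 with the batch, 2 and 653 with no filter and 4 and 893 with the replicate block, and 31 genes passed with no doublet removal. For stage in keratinocytes (29 genes) they were 1 and 431 with DESeq2, 4 and 1708 with the batch, 1 and 734 with no filter and 3 and 1298 with the replicate block; gates per 10000 UMIs gave 2 genes and library totals without TMM 0. The replicate numbers give only 2 pairs, whose deviations correlated at 0.34 in fibroblasts and 0.36 in keratinocytes in the sums. No label says what a number marks, eGFP in control fibroblasts goes with it at both stages, and whether the numbers pair the libraries was not settled.

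The Hoxc10 division called 1002 genes in controls alone, 925 with DESeq2 and 459 with cells thinned to 3000 UMIs, where 10 Hox genes passed. The Tbx5 division called 283 genes with DESeq2, 6 of them Hox genes, and 125 thinned, 1 of them a Hox gene; Hoxb8 (-0.51) and Hoxb9 (-0.44) changed sign when thinned. Under the batch Hoxa6 in keratinocytes changed sign for genotype (-0.024) and stage (-1.06), and Hoxa4 in macrophages against fibroblasts did in controls alone (0.26). The eGFP-only against tdTomato-only division called 3 genes with DESeq2. The cause was not tested in these cases.

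With each library left out in turn, an arm can hold 1 sample, which is then assumed to vary like the others. Stage calls ranged over 311 to 3539 genes and 0 to 5 Hox genes in fibroblasts and over 69 to 2281 genes and 0 to 4 Hox genes in keratinocytes, highest without E14.5 control replicate 2. Genotype calls ranged over 0 to 1 genes in fibroblasts and stayed at 0 in keratinocytes, with 0 Hox genes in either. The genotype difference ranged from -1.52 to 2.58 for Hoxd11 and -0.30 to 2.21 for Hoxd12 in fibroblasts, negative without E13.5 LOF, and in keratinocytes from -0.61 to 1.13 for Hoxa6, -0.062 to 0.27 for Hoxb2 and -2.36 to 0.085 for Hoxb9; the stage difference of Hoxa6 in keratinocytes ranged from -0.85 to 2.08.

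With cells in 2 or more gates left out, the mean Hox level was 317 CPM in muscle (Hoxb 18.9) and Hoxd was 26.6 in Schwann cells. With no doublet removal macrophages held 47.1 (Hoxa 10.2, Hoxb 11.3, Hoxc 22.0, Hoxd 3.66). Without thinning the mean number of members per cell was 3.60 in fibroblasts, 5.50 in keratinocytes, 3.54 in muscle, 2.49 in Schwann cells, 3.52 in endothelial cells and 0.283 in macrophages. Of the single-gene values under all alternatives, 938 kept their direction and side of the threshold, 43 no longer passed, 23 newly passed and 12 changed sign. The 34 to 79 endothelial cells per library and the single LOF library per stage limit the precision.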
